A study of Mus musculus with 3 samples.

Results

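Cluster 1 is 1 of 12 clusters into which the authors divided the conventional type 1 dendritic cells (cDC1s) of mouse tumours, and it carries the label early cDC1s, with *S100a4*, *S100a6* and *Ifitm1* named as marker genes. The cells were taken from the deposited table of cDC1s by their cluster number, and their barcodes, the tags that mark all molecules of a droplet, were matched to the deposited count matrices. Cluster 1 held 820 of the 5806 cDC1s in the table. The cells were compared with cluster 4, the other cluster labelled early (512 cells), with clusters 0, 2, 3, 5 and 6, which the authors call resting (3499 cells), and with all other cDC1s together (4986 cells).

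The transcription factors IRF8 and BATF3 direct the development of cDC1s from pre-cDCs, precursors made in the bone marrow. Mature cDC1s carry the chemokine receptor XCR1 and the dead-cell receptor DNGR-1, take up material from dying cells and present its antigens to CD8+ T cells. Of the markers of the label early, *S100a4* and *S100a6* encode small calcium-binding proteins, and *Ifitm1* belongs to a family of membrane proteins that hinder virus entry and that some progenitor cells make without a signal from interferon.

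The cells came from MCA205 LA OVA tumours, a transplantable fibrosarcoma line that makes the model antigen ovalbumin, grown on both flanks of mice and collected on day 5. Live CD45+ cells without lineage markers that were CD11c+ MHCII+ CD88- were sorted by CD135 and CD43 for pre-cDCs, by XCR1 for cDC1s and by SIRPa for cDC2s, and the cells of each genotype were mixed and loaded as 1 droplet-based scRNAseq library. The authors took the 3 genotypes to vary cross-presentation that depends on DNGR-1, the product of *Clec9a*, and to see whether cDC1 states change with it. The WT library pooled 37 C57BL/6J mice (25 males and 12 females). The sGSN-/- library pooled 31 mice (15 males and 16 females) that lack secreted gelsolin, a plasma protein that keeps DNGR-1 from its ligand, the actin filaments of dead cells. The sGSN-/-Clec9a-/- library pooled 27 mice (10 males and 17 females) that lack both proteins. Both mutant lines had been backcrossed to C57BL/6J, and the mice of the study were 6 to 20 weeks old.

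UMIs (unique molecular identifiers) count the molecules of each gene. In the order WT, sGSN-/- and sGSN-/-Clec9a-/-, the matrices held 12763, 8173 and 9273 barcodes with 176578136, 109270958 and 113411930 UMIs. Cluster 1 contributed 4300142, 3769802 and 3053452 of these UMIs, respectively. A cluster 1 cell had a median of 13524.5 UMIs and 2908.5 genes, against 13498 UMIs and 2955.5 genes in the other cDC1s and 11172 UMIs and 2744 genes in cluster 4, and the median share of mitochondrial UMIs was 1.71% in cluster 1 against 1.69% in the other cDC1s. Between 26 and 28 barcodes were shared by any pair of libraries, and 0 of these were cluster 1 cells in both. Doublets were scored with Scrublet, and the top 6% of scores per library took in 18 of the 820 cells (2.20%), against 9.38% of cluster 4. The share was 1.36% in all other cDC1s and from 0.101% to 0.588% in the resting clusters. The cells with these scores were kept, and the results without them are given with the other alternatives.

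The genotype labels were checked on the targeted genes within cluster 1. *Clec9a* (ENSMUSG00000046080, GRCm38 chromosome 6, 129408862 to 129424763) was counted at 109 counts per 1e6 UMIs (CPM; exact Poisson 95% interval 99.4 to 119) in WT and at 122 CPM (111 to 134) in sGSN-/- cells. In the sGSN-/-Clec9a-/- cells 0 UMIs were counted, with an upper limit of 1.21 CPM. *Gsn*, the gelsolin gene, was at 194, 230 and 227 CPM in the WT, sGSN-/- and sGSN-/-Clec9a-/- cells. Its counts hold the transcripts of secreted gelsolin and of the other products of the gene together, so they do not check the sGSN-/- label. Males made up 67.6%, 48.4% and 37% of the pools, and the Y-linked *Ddx3y*, *Eif2s3y*, *Kdm5d* and *Uty* together were at 34.4 CPM (29.1 to 40.4), 69.8 CPM (61.6 to 78.7) and 72.4 CPM (63.1 to 82.6) in cluster 1 and at 39.9, 63.2 and 37.7 CPM in the other cDC1s. *Xist* was at 284, 222 and 225 CPM in cluster 1 and at 267, 220 and 290 CPM in the other cDC1s. WT, the pool with the largest share of males, thus had the lowest Y-linked and the highest *Xist* level in cluster 1, and in the other cDC1s the libraries had another order. The share of male cells in each cluster is not known. The pools differ in sex as well as genotype, and these cannot be told apart.

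Cluster 1 was found in every genotype at a similar share. It held 301 of 2316 cDC1s in WT (13%, exact Clopper-Pearson 95% interval 11.7 to 14.4), 262 of 1712 in sGSN-/- (15.3%, 13.6 to 17.1) and 257 of 1778 in sGSN-/-Clec9a-/- (14.5%, 12.9 to 16.2). The 3 intervals overlap, and they cover counting error only, since each genotype is 1 library.

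Cells of 1 library are not replicates, so the UMIs of each gene were summed over the cells of a cluster in each library, and the 3 libraries served as replicates of the cluster (n = 3). Levels are CPM of these sums, as mean ± SD over the libraries, and the SD also holds any difference between genotypes. After scaling by TMM factors, sums were compared with the quasi-likelihood test of edgeR, and a gene was called at an adjusted p under 0.05 (Benjamini-Hochberg, over all genes tested). The clusters had been made from the same counts, so a call says how alike the 3 libraries are in a difference and does not test whether the cluster exists. The comparisons share the sums of cluster 1, so their values stand side by side and were not tested against each other.

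Of the marker genes, *Ifitm1* was highest in clusters 1 and 4. It was counted at 821, 811 and 818 CPM in the WT, sGSN-/- and sGSN-/-Clec9a-/- libraries (ENSMUSG00000025491, chromosome 7, 140967221 to 140969825, plus strand). The mean of 817 ± 5.09 CPM was the highest of the 12 clusters, ahead of cluster 4 (785 ± 80.2 CPM) and of clusters 10 and 11 (512 ± 121 and 512 ± 146 CPM). In the resting clusters *Ifitm1* was at 64.8, 71.3 and 40.9 CPM. Clusters 1 and 4 overlapped in their libraries, so *Ifitm1* does not set them apart from each other, while every library of cluster 1 lay above every library of the other 10 clusters.

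The S100 genes were at intermediate levels in cluster 1. *S100a6* (ENSMUSG00000001025, chromosome 3, 90612882 to 90624181, plus strand) was at 882, 730 and 689 CPM, below clusters 4 (1364 ± 153 CPM) and 10 (1233 ± 166 CPM) in all libraries and not separated from cluster 7 (678 ± 51.4 CPM). *S100a4* (ENSMUSG00000001020, chromosome 3, 90603771 to 90606045, plus strand, overlapping *Gm42674*) was at 222, 173 and 185 CPM, below clusters 4 (730 ± 128 CPM), 10 (364 ± 91.9 CPM) and 8 (324 ± 17.9 CPM) in all libraries. Against the resting clusters, at 41.1, 52.2 and 49.8 CPM, *S100a4* of cluster 1 stood higher in 3 of 3 libraries. Neither S100 gene singles out cluster 1, and *S100a4* is most abundant in cluster 4.

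**Figure D1:**
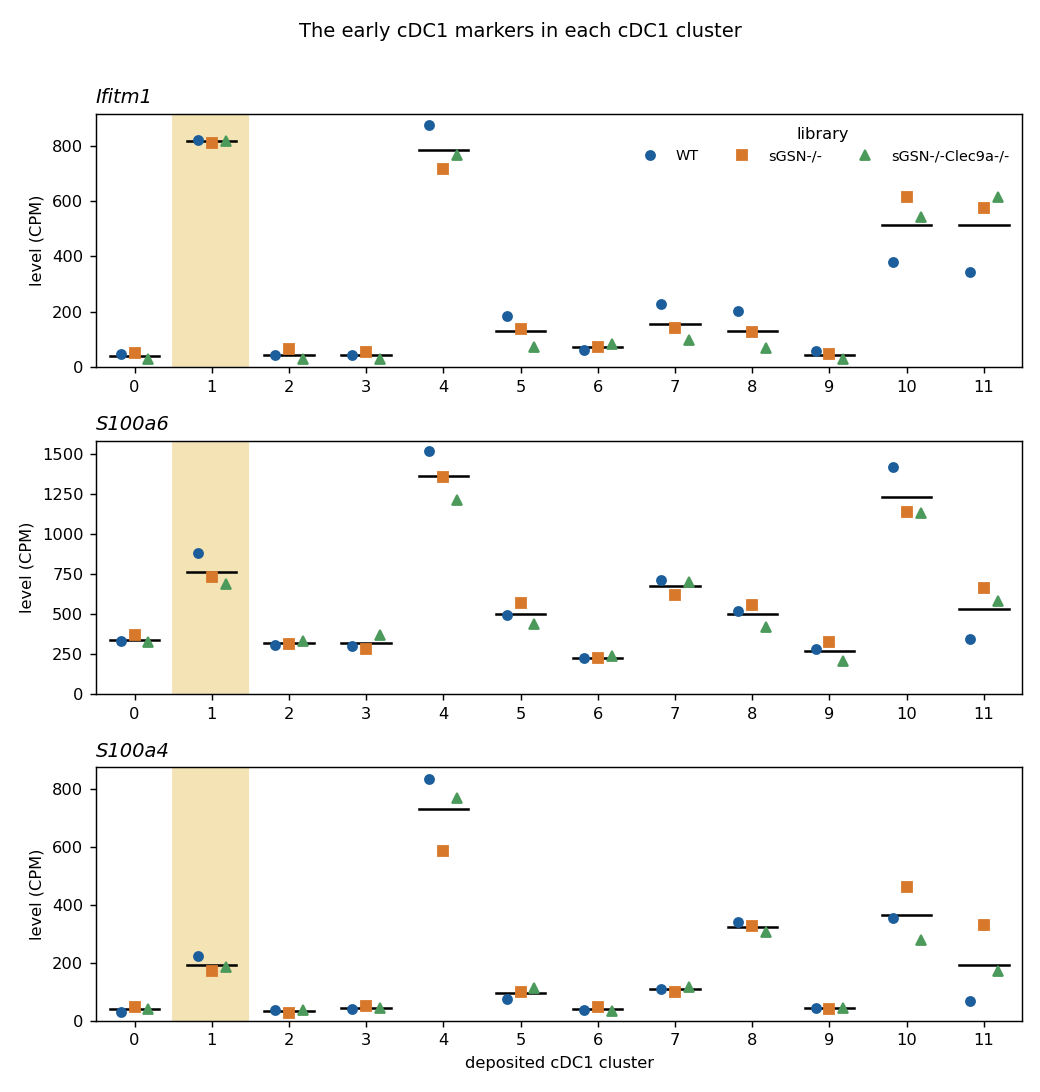
Levels of *Ifitm1*, *S100a6* and *S100a4* in CPM (linear axes from 0) in the 12 deposited cDC1 clusters. Each symbol is 1 library and the black line is the mean of 3 libraries; the shaded column is cluster 1, where *Ifitm1* has its highest mean (817 CPM) and *S100a4* (193 CPM) lies well below cluster 4 (730 CPM).

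At the level of cells the markers overlapped in part. After each cell was thinned to 3900 UMIs, which left out 30 of the 820 cells, *Ifitm1* was detected in 46.7% of cluster 1 cells, 53% of cluster 4 cells and 15.1% of resting cells. The values for *S100a6* were 79.1%, 92.7% and 59.9%, and those for *S100a4* were 33.3%, 74.5% and 14.6%. With all UMIs, *Ifitm1* was detected in 64.8%, *S100a6* in 94.4% and *S100a4* in 54.8% of cluster 1 cells. All 3 markers were found together in 130 thinned cells of cluster 1 (16.5%), in 41.3% of cluster 4 and in 1.94% of resting cells, and none of them in 11.5%, 2.44% and 30.7%. No cell type known to lack these transcripts was measured beside them, so the resting share at the same depth bounds what free RNA in the droplets could add.

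Of 10384 genes tested against the resting clusters, 1892 were higher in cluster 1 (18.2%) and 1946 were lower (18.7%). The largest increase among called genes that reached 50 CPM in either group and whose libraries did not overlap was that of *Ifitm1*, with a log2 fold change of 3.85 (standard error 0.13; adjusted p = 2e-11, quasi-likelihood test of edgeR, Benjamini-Hochberg adjusted), higher in 3 of 3 libraries. *S100a4* had a log2 fold change of 2.08 (standard error 0.11) and *S100a6* of 1.21 (standard error 0.08). Since the clusters were called on these genes, nothing is read from the share of genes called.

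*Ifitm6*, a family member known from myeloid cells, was counted at 66.7, 60.2 and 63.5 CPM in cluster 1 against 4.97, 6.17 and 4.48 CPM in the resting clusters. *Spint1*, which encodes a membrane-bound inhibitor of serine proteases (chromosome 2, 119237362 to 119249527), was at 82.6, 87.8 and 82.2 CPM against 12.8, 18.7 and 11.7 CPM. *Plet1*, a surface protein of epithelial progenitors and some dendritic cells (chromosome 9, 50494525 to 50505482, overlapping *Plet1os* on the other strand), was at 214, 288 and 134 CPM against 33, 62 and 37.7 CPM. None of these ranges overlapped, and the log2 fold changes were 3.67, 2.62 and 2.33, respectively. *Klrd1*, the CD94 chain of NK cell receptors, was at 148, 201 and 177 CPM against 34.9, 49.1 and 30.6 CPM, and *Il1r2*, a decoy receptor for interleukin-1, at 137, 177 and 172 CPM against 38.1, 47.4 and 38.9 CPM. *Lgmn*, a lysosomal cysteine protease, was at 48.6, 59.7 and 55.7 CPM against 10.1, 15 and 9.57 CPM. The log2 fold changes of these 3 genes were 2.26, 2.02 and 2.31.

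*Fdps*, the synthase of farnesyl diphosphate (ENSMUSG00000059743, chromosome 3, 89093588 to 89101959, overlapping *Gm43738* and *Gm22935*), was at 310, 290 and 216 CPM in cluster 1 against 53.7, 76.3 and 38 CPM in the resting clusters, a log2 fold change of 2.34 (standard error 0.17). *Idi1*, the isomerase that acts just before it, was at 99.1, 83 and 53.4 CPM against 17.9, 20.1 and 9.42 CPM, a log2 fold change of 2.37 (standard error 0.20). Both were higher in all 3 libraries, with the lowest value of cluster 1 in the sGSN-/-Clec9a-/- library.

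*Ccl7*, a chemokine for monocytes, had the smallest log2 fold change among called genes that reached 50 CPM and whose libraries did not overlap. *Ccl7* was at 6.28, 17.2 and 1.96 CPM against 123, 102 and 121 CPM in the resting clusters, and *Ccl2* at 27.7, 19.6 and 16.7 CPM against 229, 193 and 202 CPM. *Fgfr1*, a receptor of fibroblast growth factors, was at 10.7, 14.3 and 11.1 CPM against 118, 118 and 119 CPM. The log2 fold changes were -3.67, -3.21 and -3.24, and no library of cluster 1 came near the resting range. *Cadm1*, an adhesion molecule of mature cDC1s (chromosome 9, overlapping *Gm47198* and *Gm47197*), was at 25.8, 14.9 and 26.2 CPM against 120, 96.7 and 114 CPM, a log2 fold change of -2.26 (standard error 0.15). The transcription factor *Klf2* and the phosphatase *Dusp1*, both quickly induced by stimuli, had log2 fold changes of -2.07 and -1.79. *Lmna* (nuclear lamina), *Sept3* (a septin), *Pianp* (a ligand of the receptor PILRa) and *Hspa1b* (a heat shock protein 70) completed the lower group, with log2 fold changes of -2.02, -1.98, -2.75 and -2.05. *Hspa1b* shares most of its sequence with *Hspa1a*, so the split of reads between them is uncertain.

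**Figure D2:**
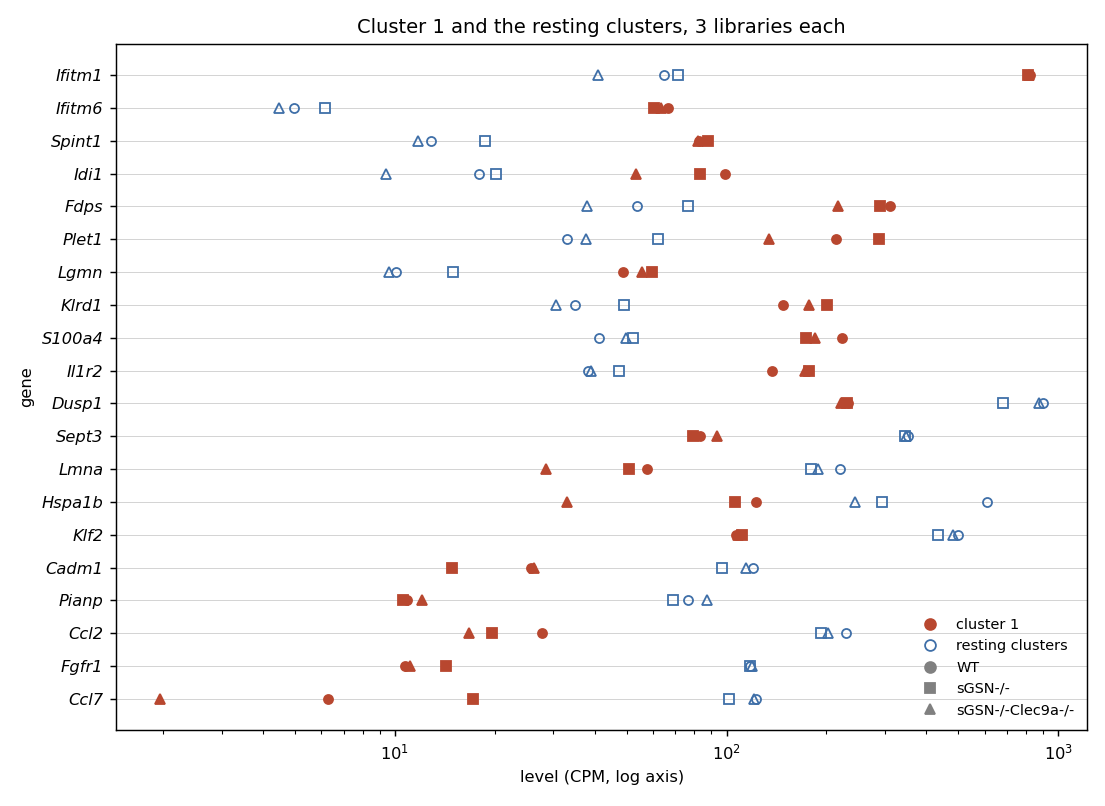
Levels in CPM (log axis) of the 10 genes with the largest and the 10 with the smallest log2 fold changes of cluster 1 against the resting clusters. Only called genes that reached 50 CPM in either group were ranked. Filled symbols are cluster 1 and open symbols the resting clusters, 1 symbol per library; the ranges of the groups do not overlap for any of these genes, a condition of the choice.

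Against cluster 4, the other early cluster, most transcripts of cDC1s were higher in cluster 1 and most of those of precursors lower. Of 8722 genes tested, 629 were higher in cluster 1 (7.21%) and 788 were lower (9.03%). In counts simulated for this comparison, 8.29% of the genes called had been given no change. The values were 5.56% for the other cDC1s and 4.76% for the resting clusters. *Itgae*, the CD103 integrin chain of cDC1s (ENSMUSG00000005947, chromosome 11, 73090583 to 73147446, overlapping *Haspin* on the other strand), was at 154, 181 and 156 CPM in cluster 1 and at 28.4, 32.3 and 56.7 CPM in cluster 4. Its log2 fold change was 2.19 (standard error 0.17; adjusted p = 2.2e-07, quasi-likelihood test of edgeR, Benjamini-Hochberg adjusted), higher in 3 of 3 libraries. *Xcr1* (ENSMUSG00000060509, chromosome 9, 123852315 to 123862029, minus strand) was at 144, 176 and 185 CPM against 54, 51.1 and 81 CPM, a log2 fold change of 1.54 (standard error 0.15). In thinned cells *Xcr1* was detected in 35.4% of cluster 1, 9.57% of cluster 4 and 56.5% of resting cells, so cluster 1 lay between them.

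*Snx22* and *Gcsam*, both on the list of cDC1 identity genes, were also higher and had means of 82.1 ± 4.08 and 82.4 ± 1.59 CPM against 32.4 ± 5.05 and 35.5 ± 9.15 CPM in cluster 4. The log2 fold changes were 1.42 and 1.33. *Agpat3*, an acyltransferase of phospholipid synthesis, and *Ffar4*, a receptor for long-chain fatty acids, had log2 fold changes of 1.66 and 1.48. *Cxcl16*, a chemokine that also acts as a scavenger receptor, was at 168, 198 and 194 CPM against 72.7, 48.1 and 125 CPM. *Plet1* and *Spint1*, higher than in the resting clusters, were also higher than in cluster 4, with log2 fold changes of 2.02 and 1.26, as was *Hepacam2*, an adhesion molecule, with 1.59. By mean, *Spint1* was higher in cluster 1 than in every other cluster but the small cluster 11. *Plet1* had higher means in clusters 10 (438 ± 238 CPM) and 11 (234 ± 113 CPM) than in cluster 1 (212 ± 77 CPM). In the resting cluster 5 it was at 118 ± 45.2 CPM, where the sGSN-/- library (170 CPM) lay above the lowest library of cluster 1 (134 CPM).

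The precursor transcript *Cd7* was low in cluster 1. *Cd7*, a surface protein of lymphoid and dendritic precursors (ENSMUSG00000025163, chromosome 11, 121036747 to 121039418, overlapping *Gm11775* on the other strand), was at 5.12, 4.77 and 1.31 CPM in cluster 1 and at 69.6, 48.1 and 44.8 CPM in cluster 4. Its log2 fold change was -3.71 (standard error 0.26; adjusted p = 8.7e-08, quasi-likelihood test of edgeR, Benjamini-Hochberg adjusted), lower in 3 of 3 libraries. *Cd7* was detected in 1.14% of thinned cluster 1 cells, 0.854% of resting cells and 14.9% of cluster 4 cells, and with all UMIs in 5%, 2.66% and 30.3%. Against the resting clusters it was higher, with a log2 fold change of 0.98 (adjusted p = 0.045, quasi-likelihood test of edgeR, Benjamini-Hochberg adjusted). Of the 6 pre-cDC markers, *Cd7* among them, 4 were higher than in the resting clusters. These became 3 with DESeq2, and 2 higher and 1 lower without TMM factors. In the sGSN-/-Clec9a-/- library *Cd7* of cluster 1, at 1.31 CPM, lay below the resting mean of 2.01 CPM. The *Cd7* sum in cluster 1 rests on 44 UMIs.

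*Cd209a*, a lectin of cDC2s, was at 22.3, 15.7 and 21 CPM in cluster 1 against 210, 162 and 177 CPM in cluster 4, a log2 fold change of -3.14. *Plec*, which links the cytoskeleton to membranes, and *Irf1*, a transcription factor of the interferon response, had log2 fold changes of -2.64 and -2.16. *Cxcl9*, a chemokine for T cells, was at 17, 40.3 and 13.8 CPM against 134, 72.5 and 127 CPM. *Rgcc*, *Tmem176b* and *4930523C07Rik* had log2 fold changes of -2.32, -1.97 and -2.04. Among called genes that reached 50 CPM without overlap of libraries, *S100a4* also had one of the smallest values (-1.83, standard error 0.12). *S100a6* had a log2 fold change of -0.74 (standard error 0.09), and *Ifitm1*, at 0.14 (standard error 0.08), was not called. With the library as a block, which compares the sums within each pool of mice, *Ifitm1* was called at a log2 fold change of 0.15. The pools went both ways: *Ifitm1* was lower in cluster 1 than in cluster 4 in WT (821 against 873 CPM). It was higher in sGSN-/- (811 against 716 CPM) and in sGSN-/-Clec9a-/- (818 against 767 CPM).

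The cells outside the deposited table allowed a look at the precursor side. The barcodes that passed the filters were clustered, and 2 of 27 clusters met the rule for pre-cDC-like cells and for no other type. The rule asked for at least 3 markers of a type and counted its markers among the genes that lead the cluster. Clusters that met it for several types, pre-cDCs among them in some, were left unnamed. The pre-cDC-like clusters held 2702 cells outside the table (1292 WT, 600 sGSN-/- and 810 sGSN-/-Clec9a-/-) with 28703183 UMIs. Both clusters also carried 3 cDC2 markers, and 1 of them 3 plasmacytoid markers as well. The 8 cDC1 markers summed to 360 ± 32.8 CPM in these cells. Of the 820 cells of cluster 1, 0 fell into these clusters (upper 95% limit 0.449%), against 39 of the 512 cells of cluster 4 (7.62%). Of cluster 1, 688 cells fell into a single cDC1-like cluster led by *Plet1*, which also took in 388 cells of cluster 4.

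Precursor transcripts were far lower in cluster 1 than in pre-cDC-like cells, and lineage transcripts far higher. *Cd7* was at 537, 641 and 529 CPM in pre-cDC-like cells and *Cd209a* at 724, 649 and 699 CPM. *Xcr1* was at 3.35, 6.75 and 5.12 CPM and *Itgae* at 5.23, 7.85 and 3.91 CPM. Cluster 4 lay between the pre-cDC-like cells and cluster 1 for each of these genes. The 3 early markers were higher still in the precursors: *S100a4* was at 2831 ± 236 CPM, *S100a6* at 4015 ± 217 CPM and *Ifitm1* at 2142 ± 236 CPM. These levels were not tested, since the rebuilt clusters were named from some of the same genes. The early markers were not confined to precursors and early cDC1s. Another rebuilt cluster, with 3837 of its 3838 cells outside the table, met the naming rule by these 3 markers and also carried 5 cDC2 markers.

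**Figure D3:**
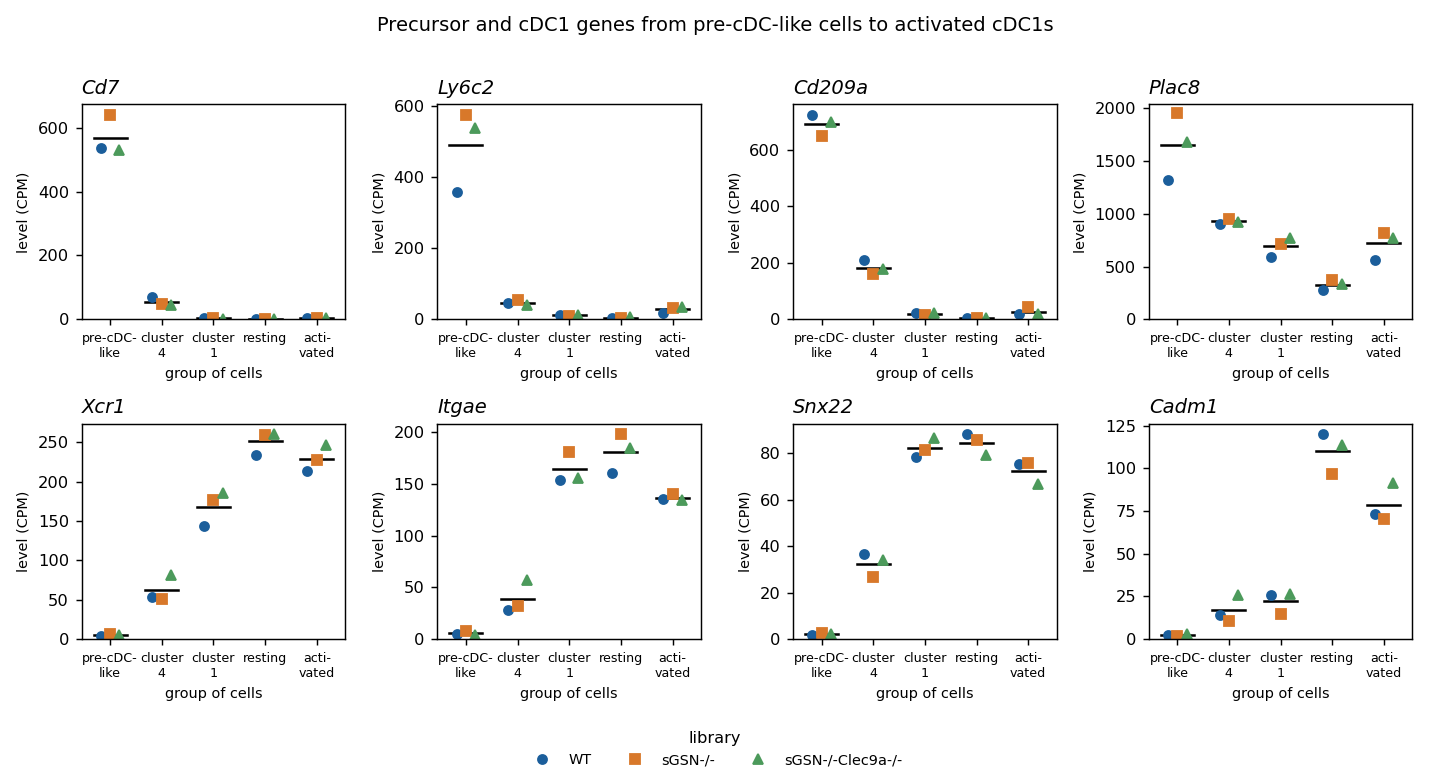
Levels in CPM (linear axes from 0) of 4 precursor-associated genes (top) and 4 cDC1 genes (bottom) in pre-cDC-like cells, cluster 4, cluster 1, the resting clusters and the activated clusters 7 to 10. Symbols are libraries and lines their means. *Cd7* and *Cd209a* are low in cluster 1, *Itgae* and *Snx22* are near the resting level, and *Cadm1* (22.3 CPM in cluster 1) is below it.

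The counts of gene lists stand beside those of all genes tested, of which 18.2% were higher and 18.7% lower than in the resting clusters and 7.21% higher and 9.03% lower than in cluster 4, with medians of -0.01 in both. Of the 18 DC precursor genes, 15 passed the filter on low counts against the resting clusters, and 9 were higher in cluster 1 and 1 was lower, with a median log2 fold change of 0.78. *Cd34*, a sialomucin of progenitors, was at 9.33 ± 2.68 CPM against 1.03 ± 0.3 CPM, and *Siglech*, a lectin of plasmacytoid cells and early precursors, at 17.7 ± 3.44 CPM against 2.64 ± 0.742 CPM. *Siglech* was higher in cluster 1 than in cluster 4 too (4.87 ± 0.353 CPM, log2 fold change 1.92). Against cluster 4, 14 of the precursor genes were tested, and 2 were higher and 9 lower, with a median of -1.12 (1 higher and 5 lower of 8 in thinned cells). *Cx3cr1*, a chemokine receptor of precursors and monocytes, and *Spn*, which encodes the CD43 used in the sort, had log2 fold changes of -2.95 and -2.40. *Plac8*, a marker of several immature myeloid cells, was graded: 690 ± 94.8 CPM in cluster 1 as against 927 CPM in cluster 4, 328 ± 48.9 CPM in resting and 1648 ± 319 CPM in pre-cDC-like cells.

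The list of 18 cDC1 identity genes turned from one neighbour to the other. All 18 were tested. Against the resting clusters 0 were higher and 12 lower (median log2 fold change -0.46), and against cluster 4, 11 were higher and 0 lower (median 0.52). *Cadm1* and *Cd36*, a scavenger receptor (-1.19, standard error 0.13), were the members furthest below the resting level. *Zbtb46*, a transcription factor of conventional dendritic cells, was at 30.1 ± 4.83 CPM against 59 ± 3.38 CPM, and *Cd24a*, a surface sialoglycoprotein, at 394 ± 22.5 CPM against 620 ± 23.7 CPM. *Itgae* at 164 ± 15 CPM and *Snx22* at 82.1 ± 4.08 CPM lay near the resting means (181 and 84.3 CPM). The values of *Clec9a* in this list include the sGSN-/-Clec9a-/- library, where the gene is absent.

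The transcription factors of dendritic cells were mostly lower or not called. Of 18 tested, 2 were higher and 7 lower than in the resting clusters, and 1 was higher and 6 lower than in cluster 4 (3 lower in thinned cells). *Cebpa*, a factor of myeloid development, was at 12.6 ± 0.969 CPM against 35.1 ± 6.37 CPM in resting cells, and *Notch2*, a receptor needed for dendritic cell differentiation, at 64.9 ± 1.41 CPM against 116 ± 5.51 CPM. *Zeb2*, which favours the plasmacytoid and cDC2 fates, was at 6.51 ± 1.41 CPM in cluster 1 as against 47.4 ± 7.98 CPM in cluster 4 and 217 ± 26 CPM in pre-cDC-like cells. *Irf8*, the factor that sets the cDC1 fate, was at 995 ± 40.3 CPM, against 952 CPM in cluster 4 and 126 ± 17.9 CPM in pre-cDC-like cells. Its levels in clusters 1 and 4 were thus similar.

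Genes of stimulation were low in cluster 1. Of 16 immediate early genes tested, 15 were lower than in the resting clusters (median log2 fold change -0.84) and 9 were lower than in cluster 4 (median -0.37), with 0 higher in either. *Klf2*, at 107, 111 and 108 CPM, and *Dusp1*, at 233, 231 and 221 CPM, were the lowest of all 12 clusters by mean. *Egr1* was at 329 ± 44.5 CPM against 792 ± 38.3 CPM in resting cells, and *Klf6* at 263 ± 11.6 CPM against 798 ± 69.9 CPM. Heat shock chaperones were lower than in the resting clusters in 8 of 10 members tested (median -0.79), among them *Hsph1* at 34.5 ± 13.2 CPM against 89.6 ± 33.6 CPM and *Dnajb1* at 73.9 ± 16.7 CPM against 173 ± 57 CPM.

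Against the resting clusters, interferon-stimulated genes were low in cluster 1 although the Ifitm family was high. Of 14 genes of the list tested, 8 were lower than in the resting clusters and 0 higher (median log2 fold change -0.45). Against cluster 4, 15 were tested and 15 were lower (median -0.88), but in thinned cells 1 of 9 was lower (median -0.27). *Ifit3*, an antiviral RNA-binding protein, was at 0.419 ± 0.472 CPM against 29.1 ± 14.4 CPM in cluster 4, and *Rsad2*, which encodes viperin, at 4.26 ± 0.537 CPM against 43.7 ± 28.1 CPM. Of the 7 Ifitm genes, 5 passed the filter, and 4 were higher than in the resting clusters (median 1.18). *Ifitm2* was at 2215 ± 94.8 CPM in cluster 1 as against 1907 ± 66 CPM in cluster 4 and 1056 ± 56.1 CPM in resting cells, and *Ifitm3* at 1497 ± 20.9, 2064 ± 190 and 686 ± 28.8 CPM. By mean, *Ifitm2* was highest in cluster 1, and *Ifitm3* and *Ifitm6* were highest elsewhere. The sequences of the family are alike, so the split of reads among members is uncertain. Of the 11 S100 genes, 6 were tested, with 2 higher and 1 lower than in the resting clusters and 2 higher and 3 lower than in cluster 4. *S100a10*, the partner of annexin A2, was at 383 ± 12.3 CPM in cluster 1 against 894 ± 96.3 CPM in cluster 4, and *S100a8* and *S100a9* were at 0.

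Because *Ifitm1*, *Ifitm2* and *Ifitm3* were high where other interferon-stimulated genes were low, their promoters were searched on both strands for the core of the interferon-stimulated response element (ISRE). The windows run from 250 bases before to 50 after the start of transcription, as RefSeq gives it on GRCm38.p6. The core was in 1131 of 32851 such windows (3.44%), in 2 of the 7 Ifitm genes, in 5 of 13 interferon-stimulated genes with a window and in 0 of 10 S100 genes. *Ifitm2* held it 46 bases before the start, *Ifitm3* held it at 2 positions, 2 and 19 bases after the start, and the *Ifitm1* window held none. That *Ifitm1* window begins downstream of the annotated gene start at 140967221, so it does not cover the bases around that start. A match is a description of the letters and not a sign of binding. The windows are shown 5′ to 3′ on the strand of the gene, for chr7:140967826-140968125 (plus strand), chr7:140955912-140956211 (minus strand) and chr7:141010695-141010994 (minus strand), with the core in capitals.
*Ifitm1*: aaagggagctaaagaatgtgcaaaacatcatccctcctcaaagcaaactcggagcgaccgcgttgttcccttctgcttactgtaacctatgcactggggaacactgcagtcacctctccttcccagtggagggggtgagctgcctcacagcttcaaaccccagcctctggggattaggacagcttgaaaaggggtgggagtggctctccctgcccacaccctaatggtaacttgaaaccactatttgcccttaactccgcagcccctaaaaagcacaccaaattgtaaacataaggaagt
*Ifitm2*: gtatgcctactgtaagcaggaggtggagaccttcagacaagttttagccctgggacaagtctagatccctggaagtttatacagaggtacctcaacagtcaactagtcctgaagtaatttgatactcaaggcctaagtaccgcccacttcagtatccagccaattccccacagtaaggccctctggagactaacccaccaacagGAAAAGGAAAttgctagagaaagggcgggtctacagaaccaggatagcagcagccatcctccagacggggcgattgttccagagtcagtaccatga
*Ifitm3*: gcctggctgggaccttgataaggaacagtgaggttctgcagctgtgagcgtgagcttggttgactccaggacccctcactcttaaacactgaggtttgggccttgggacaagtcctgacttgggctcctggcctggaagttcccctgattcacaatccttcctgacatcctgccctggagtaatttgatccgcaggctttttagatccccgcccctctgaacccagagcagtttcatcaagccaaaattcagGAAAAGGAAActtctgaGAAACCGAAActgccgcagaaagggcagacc

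Of 11 MHC class II genes, 4 were higher and 2 lower than in resting cells, and 2 in each direction without TMM factors, with DESeq2 or in thinned cells. Against cluster 4, 6 were higher and 0 lower (median 0.33), with *H2-Eb1* at 8673 ± 291 CPM against 5891 ± 486 CPM and *H2-Ab1* at 10760 ± 263 CPM against 8314 ± 513 CPM. Both encode beta chains of the molecules that present peptides to CD4+ T cells. Of 15 MHC class I genes, 2 were higher and 5 lower than in resting cells (median -0.13; 4 and 8 with the library as a block), among them *B2m*, the light chain of class I molecules, at 800 ± 37.2 CPM against 1108 ± 14.4 CPM. Against cluster 4, 6 were higher and 0 lower, 3 higher and 1 lower without TMM factors, and 3 higher in thinned cells.

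Uptake and lysosomal genes divided by member. Of 12 uptake and sensing receptors tested against resting cells, 3 were higher and 5 lower, and 3 in each direction with DESeq2. Against cluster 4, 5 of 11 were higher and 1 lower, which became 8 and 0 without doublets, 3 and 0 with DESeq2, and 3 and 0 of 9 in thinned cells. *Tlr12*, a sensor of profilin of protozoa, was at 15.5 ± 0.630 CPM in cluster 1 as against 2.86 ± 0.881 CPM in resting cells and 9.18 ± 1.67 CPM in cluster 4, while its partner *Tlr11* was lower than in resting cells (9.32 ± 1.58 against 23.9 ± 2.21 CPM). *Tlr3*, a sensor of double-stranded RNA typical of cDC1s, was at 157 ± 5.81 CPM, above cluster 4 (77.5 ± 5.39 CPM). *Havcr2*, which encodes TIM-3, was at 191 ± 11 CPM against 95.4 ± 7.26 CPM in cluster 4. Of 14 lysosomal genes, 8 were higher and 1 lower than in resting cells (median 0.25), with *Ctsh* at 367 ± 20.6 CPM against 206 ± 13.4 CPM and *Ctss*, which trims the invariant chain, at 808 ± 66.3 CPM against 561 ± 40.3 CPM. Against cluster 4, 2 were higher and 7 lower, and 3 of 12 lower in thinned cells. Of the monocyte or macrophage markers, 7 were tested against cluster 4, with 0 higher and 6 lower (median -1.6; 1 lower of 4 in thinned cells), among them *Csf1r* (-2.05), *C1qb* (-1.66) and *Apoe* (-1.6). Their 9 members summed to 715, 629 and 696 CPM in cluster 1 and to 769, 760 and 952 CPM in cluster 4, led by *Lyz2*, which was not called. Their part in the lysosomal counts was not tested.

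Metabolic lists leaned upwards. Of 77 oxidative phosphorylation genes tested, 66 were higher and 1 lower than in the resting clusters (median log2 fold change 0.35) and 32 were higher and 0 lower than in cluster 4 (median 0.23; 10 higher without TMM factors, 10 in thinned cells, 21 with DESeq2 and 49 with the library as a block). *Atp5g1*, a subunit of ATP synthase, was at 427 ± 5.30 CPM against 293 ± 12.6 CPM in resting cells, and *Cox5a*, a subunit of cytochrome oxidase, at 382 ± 8.11 CPM against 270 ± 17.5 CPM. Of 13 mitochondrially encoded genes, 1 was higher than in resting cells and 0 lower, 1 in each direction without TMM factors, and 7 higher and 1 lower with the library as a block. Of 80 ribosomal protein genes, 31 were higher and 0 lower than in resting cells (median 0.16), and 1 in each direction was called against cluster 4. With the library as a block, 69 were higher than in resting cells, and 18 were higher and 1 lower than in cluster 4. Glycolysis genes were higher in 9 and lower in 1 of 13 tested against resting cells. *Eno1* (enolase) was at 99 ± 2.95 CPM against 66.7 ± 1.59 CPM, and the member that was lower was *Pfkp*, a phosphofructokinase, at 151 ± 9.02 CPM against 385 ± 20.1 CPM.

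*Fdps* and *Idi1* led to a look at the pathway, and the 20 genes of sterol synthesis were chosen after their values were seen, so their counts are a description. Compared with resting cells 19 were higher and 0 lower (median log2 fold change 1.24), and compared with cluster 4, 0 were higher and 13 lower (median -0.69). *Sqle*, which oxidises squalene, was at 19.8 ± 3.54 CPM in cluster 1 as against 4.99 ± 2.28 CPM in resting cells and 34.6 CPM in cluster 4. *Hmgcs1*, at the entry of the pathway, was at 53 ± 12.5 CPM in cluster 1 and 135 ± 40.8 CPM in cluster 4. *Fdps* was detected in 50.1% of thinned cluster 1 cells, 58% of cluster 4 cells and 14.9% of resting cells. The sterol response element TCACNCCAC, searched on both strands, was in 408 of the 32851 promoter windows (1.24%) and, of the 13 sterol genes with a window, in that of *Hmgcs1*, 137 bases before the start.

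Of 22 actin and motility genes, 6 were higher and 10 lower than in resting cells, and 2 were higher and 11 lower than in cluster 4 (4 and 12 with the library as a block). *Ahnak*, a large scaffold protein, was at 288 ± 29.8 CPM, below resting cells (732 ± 69.2 CPM) and cluster 4 (866 ± 154 CPM), and *Lgals1*, a galectin, was above resting cells (562 ± 13.6 against 392 ± 44.6 CPM). *Vim*, the intermediate filament vimentin, was at 1484 ± 170 CPM against 3378 ± 497 CPM in cluster 4. Of 22 cell cycle genes tested against resting cells, 3 were higher and 5 lower, near the shares of all genes tested (0 higher and 3 lower of 15 in thinned cells). Against all other cDC1s, 0 were higher and 8 lower of 22 (3 lower of 17 in thinned cells). *Mki67*, a marker of dividing cells, was at 7.56 ± 1.62 CPM in cluster 1 and 6.62 ± 0.753 CPM in resting cells and was not called. Proliferating cells were left out by the authors before the cDC1s were clustered, so these levels cannot show how often cells of either group divide. Chemokine receptors included *Cxcr4*, the bone marrow homing receptor, at 21.3 ± 0.699 CPM against 8.44 ± 0.877 CPM in resting cells, and *Cxcr3*, the receptor for *Cxcl9*, at 32.7 ± 7.29 against 86.4 ± 5.13 CPM.

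**Figure D4:**
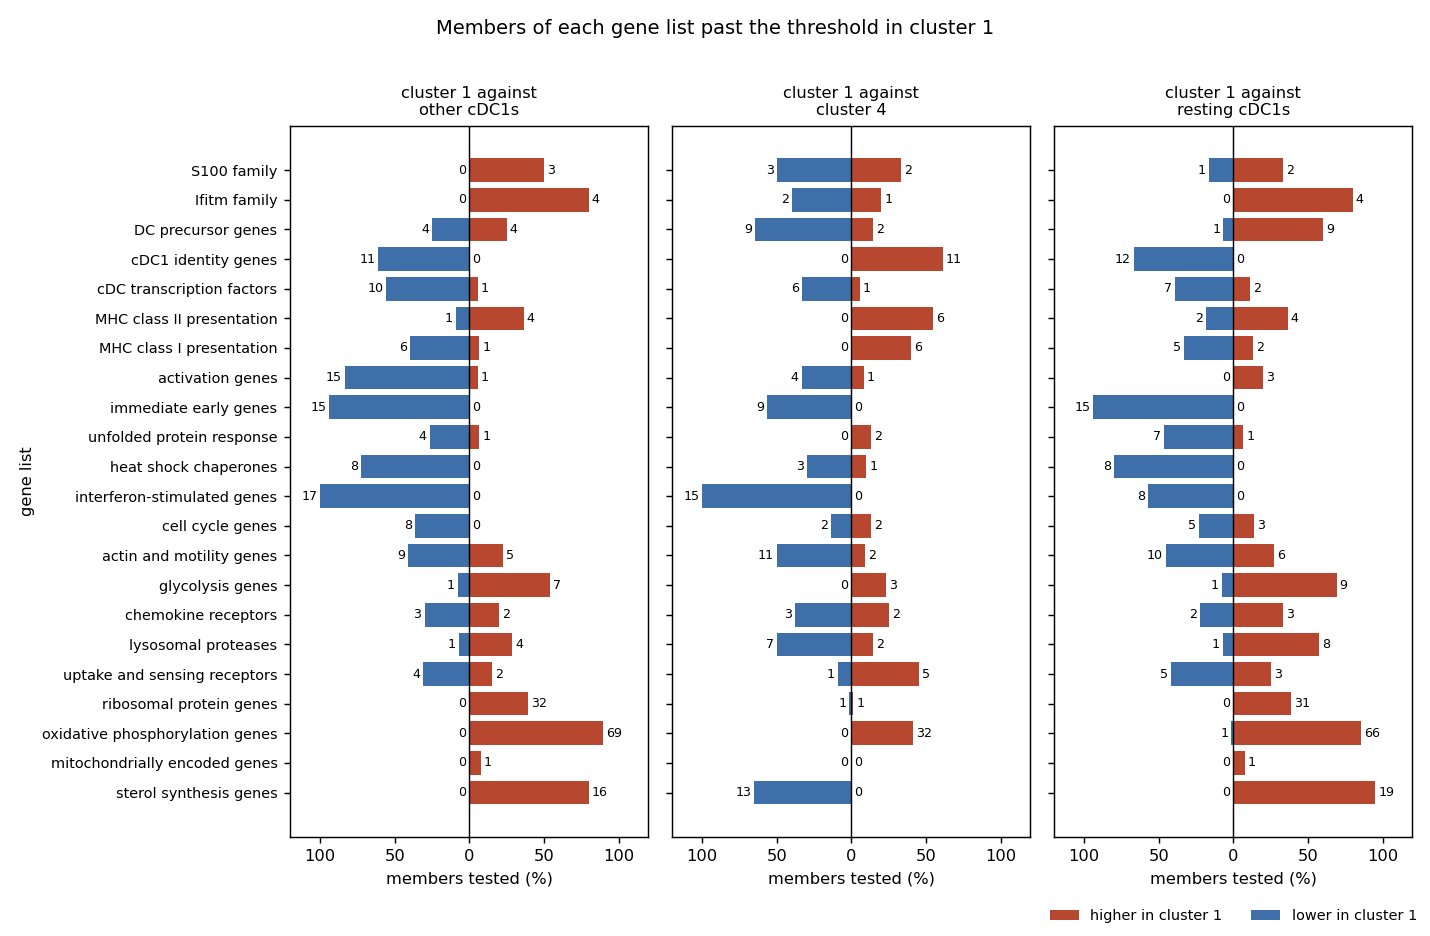
Share of the tested members of each gene list that were called higher (right) or lower (left) in cluster 1, with the number of members at the end of each bar, for the comparisons with all other cDC1s, cluster 4 and the resting clusters (n = 3 libraries). The cDC1 identity genes lean to opposite sides against cluster 4 (11 higher) and the resting clusters (12 lower); the sterol synthesis list was chosen after its values were seen.

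Set against all other cDC1s together, activated cells included, cluster 1 had *Ifitm1* on top again, and most activation genes were lower. This rank of *Ifitm1* holds among called genes that reached 50 CPM in either group and whose libraries did not overlap. Of 10839 genes tested, 1824 were higher (16.8%) and 1922 lower (17.7%). *Ifitm1* had a log2 fold change of 2.54 (standard error 0.08), *S100a6* 0.71 (standard error 0.08) and *S100a4* 0.58 (standard error 0.08; adjusted p = 3.6e-09, 3.3e-05 and 0.00025, quasi-likelihood test of edgeR, Benjamini-Hochberg adjusted), each higher in 3 of 3 libraries. *Spint1* (2.31), *Plet1* (2.06), *Klrd1* (1.79), *Il1r2* (1.63), *Ifitm6* (1.39) and *Idi1* (1.20) were again among the 15 largest log2 fold changes under these limits, as was *Fdps*, at 272 ± 49.3 CPM against 101 ± 30.8 CPM. Further genes of this group were *Dab2*, an endocytic adaptor (1.91), *Smim3*, a small membrane protein (1.74), *Slc25a33*, a mitochondrial pyrimidine carrier (1.71), *Neurl3*, a ubiquitin ligase (1.52), *Itgax*, the CD11c chain (1.43), *Entpd1*, the ectonucleotidase CD39 (1.41), and *Prdx6*, a peroxiredoxin (1.16). *Itgax*, used in the sort, was at 85.3, 85.9 and 93.3 CPM in cluster 1 against 32.7, 37.1 and 32.8 CPM in the other cDC1s.

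Of 18 activation genes, 15 were lower and 1 higher than in the other cDC1s (median log2 fold change -2.34). *Cd83*, the most abundant of them, was at 745 ± 59.8 CPM against 783 ± 3.83 CPM and was not called. *Ccr7*, the receptor that guides activated cells to lymph nodes, was at 1.63, 4.24 and 0 CPM in cluster 1 against 88.9, 158 and 35.2 CPM, a log2 fold change of -5.43 (standard error 0.75). *Il12b*, a subunit of interleukin-12, was at 2.33, 18 and 12.4 CPM against 94.8, 144 and 38.6 CPM, and *Ccl22*, a T cell chemokine, at 2.79, 3.45 and 1.64 CPM against 88, 81.5 and 37.9 CPM. Most of the difference lies in the activated clusters, as *Ccr7* was at 489 CPM in clusters 7 to 10 and at 0.826 CPM in the resting ones. Against resting cells 3 activation genes of 15 tested were higher in cluster 1 and 0 lower (7 higher with the library as a block): *Cxcl10* (1.72), *Cxcl16* (1.02) and *Cd80*, a costimulatory ligand (1.01). The other genes with the smallest values against all other cDC1s were ranked among called genes that reached 50 CPM without overlap of libraries. They were *Ccl7* (-3.35), *Ccl5* (-3.25), *Fgfr1* (-2.99), *Ccl2* (-2.92), *Cxcl9* (-2.79), *Pianp* (-2.46), *Marcksl1* (-2.32), *Cadm1* (-2.04), *Klf2* (-1.95), *Lmna* (-1.95), *Hspa1b* (-1.94) and *Ifi204* (-1.83). All 17 interferon-stimulated genes tested were lower in cluster 1 (median -1.99).

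Scaling bears on the balance of these counts. Of all genes called, 48.7% were higher in cluster 1 against the other cDC1s and 44.4% against cluster 4, and without TMM factors these shares were 36.8% and 26.4%. Against the resting clusters they were 49.3% and 40.2%. The median log2 fold change over all genes tested was -0.02, -0.01 and -0.01 with TMM factors and -0.08, -0.10 and -0.07 without them.

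Markers of other cells that the gate could hold were looked for in cluster 1. The 5 neutrophil markers summed to 0.430 ± 0.234 CPM, with *S100a8*, *S100a9* and *Retnlg* at 0, and the 5 fibroblast or tumour cell markers to 0.452 ± 0.302 CPM, with *Col1a1* and *Col1a2* at 0. B cell markers summed to 1.45 ± 0.968 CPM and T cell markers to 3.79 ± 1.21 CPM. The S100 transcripts of cluster 1 thus came with almost no neutrophil transcripts. The 7 NK cell markers summed to 156, 236 and 197 CPM, of which *Klrd1* made up 175 ± 26.5 CPM on average, and the NK receptor *Ncr1* was at 1.23 CPM against 1.31 CPM in the other cDC1s. The 6 cDC2 markers summed to 57.5 ± 6.40 CPM in cluster 1, 26.3 ± 1.54 CPM in resting cells and 310 ± 44 CPM in cluster 4. The 6 plasmacytoid markers summed to 56.9 ± 2.89 CPM, led by *Tcf4* at 35.1 ± 3.11 CPM with *Klk1* at 0. The 9 monocyte or macrophage markers summed to 680 ± 44.8 CPM, of which *Lyz2* made up 631 ± 36.3 CPM, below resting cells (964 ± 62.6 CPM in sum). The sum follows *Lyz2*: of the 9 markers 3 were lower than in resting cells and 2 higher, *Fcgr1* (13.6 ± 2.45 against 2.6 ± 0.386 CPM) and *Csf1r* (6.53 ± 1.23 against 2.86 ± 0.77 CPM). The 8 cDC1 markers summed to 2975, 3094 and 3045 CPM, between cluster 4 (2264 ± 100 CPM) and the resting clusters (4316 ± 40.2 CPM).

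As a whole profile cluster 1 was closest to clusters 5, 0 and 4. The Pearson correlation of log2(CPM + 1) across 10839 genes, computed in each library, averaged 0.969 with cluster 5, 0.968 with cluster 0 and 0.966 with cluster 4, and these were not separated over the libraries. It was 0.958 with cluster 3, 0.957 with cluster 2 and 0.928 with pre-cDC-like cells. Genes are not independent replicates, and the clusters differ in depth, from 150984 UMIs in cluster 11 to 15024571 in cluster 0, so the order is a description.

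Within cluster 1 the genotypes were alike in most transcripts. Among genes that reached 50 CPM in either library, the median absolute log2 ratio was 0.090 between sGSN-/- and WT (2461 genes) and 0.106 between sGSN-/-Clec9a-/- and sGSN-/- (2409 genes), against 0.074 and 0.091 for the same genes in the other cDC1s. There was 1 library per genotype, so these ratios have no replicate check and carry no test. The largest ratios of sGSN-/- to WT were those of *Tpi1*, an enzyme of glycolysis (0.68, exact 95% interval 0.48 to 0.88; 0.07 in the other cDC1s), *Rgs1*, a regulator of G protein signalling (0.65; 0.49), *H2-Q7* (0.63; 0.25), *Gadd45b* (0.61; 0.12) and *AW112010* (0.60; 0.61). Among the smallest were those of *AC149090.1* (-0.70; -0.74), *Cwf19l2* (-0.64; -0.25), *Mxd1* (-0.64; 0.28) and *Gm10076* (-0.63; -0.61). *Mxd1* and *Tpi1* differed most from the other cDC1s of the same libraries, whereas *AW112010*, *AC149090.1* and *Gm10076* had similar ratios there.

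Between sGSN-/-Clec9a-/- and sGSN-/- cells the gene that was absent by design, *Clec9a*, came first, and *Hspa1b* followed. *Hspa1b* was at 123, 106 and 33.1 CPM in the 3 libraries, a log2 ratio of -1.66 (exact 95% interval -2.01 to -1.36) against -0.27 in the other cDC1s, and *Hspa1a* at 382, 308 and 117 CPM, a ratio of -1.39 (-1.57 to -1.22) against -0.32. The transcription factor *Cebpb* (-1.64; -1.69) and *Basp1*, a membrane-associated protein (-1.29; -0.97), had similar ratios in both groups of cells. The largest ratios were those of *Gm42418* (0.79; 0.95), a locus overlapping ribosomal RNA, *Cd81* (0.65; -0.13), *mt-Nd3* (0.65; 0.46), *Lars2* (0.60; 0.70) and *Neat1* (0.56; 0.63). *Gm42418*, *mt-Nd3*, *Lars2* and *Neat1* moved together in all cDC1s of that library, whose cells were also shallower, with a median of 11771 UMIs in cluster 1 against 14630 in the sGSN-/- library. The part of depth in these ratios was not tested.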

How the data were processed

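The deposited count matrices of 3 libraries were used as given by the authors, who made them with Cell Ranger 6.0.1 on mm10 (GRCm38). UMI totals in the deposited table equalled the matrix totals for 4559 cells and differed by at most 34 UMIs for 1247. UMIs were summed per library and cluster over 32285 genes, of which 32235 matched GENCODE M21. Of the named genes whose positions were looked up and whose overlap is not given with them, *Clec9a*, *Gsn*, *Il1r2*, *Idi1*, *Ccl2*, *Fgfr1*, *Dusp1*, *Hspa1a*, *Snx22*, *Agpat3*, *Cxcl16*, *Plec*, *Irf1*, *Tmem176b*, *4930523C07Rik*, *Cd34*, *Cx3cr1*, *Zbtb46*, *Cebpa*, *Notch2*, *Zeb2*, *Irf8*, *Ifitm2*, *H2-Eb1*, *B2m*, *Tlr3*, *Ctss*, *Cox5a*, *Pfkp*, *Hmgcs1*, *Mki67*, *Dab2*, *Slc25a33*, *Entpd1*, *Cxcl10*, *Col1a2*, *Tcf4*, *Klk1*, *Csf1r*, *Tpi1* and *Cebpb* also overlap an annotated gene. The comparisons ran in R 4.3.3 with edgeR 4.0.16 (filterByExpr, TMM factors, quasi-likelihood test, Benjamini-Hochberg adjustment at 0.05), and standard errors are the log2 fold change divided by the root of F.

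Genes were named if they were called, reached 50 CPM in either group and had libraries that did not overlap: the 15 largest and 15 smallest log2 fold changes against the other cDC1s, and 10 of each against cluster 4 and the resting clusters. Some results are not reported here. Members and lists were chosen with earlier results of these data known.

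Libraries of a comparison come from the same pools of mice. Across genes, the deviations of a library's log2 CPM from the mean of its group were compared between cluster 1 and the other group of the same library. Their correlations were 0.187, 0.159 and 0.245 against the other cDC1s, 0.155, 0.100 and 0.220 against cluster 4, and 0.176, 0.125 and 0.233 against the resting clusters, in the order WT, sGSN-/- and sGSN-/-Clec9a-/-. A model with the library as a block was run beside the others.

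All 30209 barcodes were taken and 28855 with at least 200 genes and at most 16.7% mitochondrial UMIs went into clustering (scanpy 1.11.5, leidenalg 0.10.2; 2000 variable genes, 50 components, 20 neighbours, resolution 1; 20 clusters at resolution 0.5). The automatic Scrublet threshold found 0, 0 and 539 doublets and was not used; the 6% with the highest scores were 765, 490 and 556 barcodes. Thinning to 3900 UMIs left out 288 cells. Alternatives were DESeq2 1.42.0, its size factors in edgeR, no TMM factors, a library block, thinned cells, cells without doublets, no filter on low counts, other cDC1s without clusters 6 and 11 or without cluster 4, and each library left out.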

Additional observations from a re-analysis of the deposited data

How the results depend on the processing

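The counts of called genes moved with depth and with the number of libraries. Against the other cDC1s, 1824 genes higher and 1922 lower in cluster 1 became 1030 and 1088 in thinned cells, and 963 to 1457 and 1141 to 1565 when 1 library was left out (963 and 1141 without WT, 1170 higher without sGSN-/-). Against cluster 4, 629 higher became 380 with DESeq2, 360 without TMM factors, 275 in thinned cells and 267 to 528 with a library left out (267 without WT, 297 without sGSN-/-). The 788 lower became 493 with DESeq2, 310 in thinned cells and 441 to 620 with a library left out (441 without WT, 490 without sGSN-/-). Against the resting clusters, 1892 higher and 1946 lower became 1145 and 1144 in thinned cells, and 1201 to 1621 and 1286 to 1593 with a library left out (1201 and 1286 without WT). Without doublets the counts were 1818 higher and 1915 lower against the other cDC1s, 636 and 723 against cluster 4, and 1903 and 1955 against the resting clusters. Single genes were followed over the alternatives if they were named by the rule on 50 CPM or were *S100a4*, *S100a6* or *Ifitm1*. Of their values, 813 kept their call and direction, and *Ifitm1* against cluster 4 was called with the library as a block (log2 fold change 0.15). Other list members were followed only through the counts of their lists.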
